A study of Rattus norvegicus with 8 samples.

Results

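Gene expression in flown muscle cells was compared with that in cells kept on the ground, across genes on 8 arrays. The genes were all 15037 with a symbol among 23188 probe sets, each taken at its brightest probe set. The cells were H9c2, a myoblast line from embryonic rat heart whose single-nucleus cells can fuse into skeletal muscle-like myotubes. The 3 space arrays comprised 1 of untreated cells and 2 (replicates 1 and 2) of cells treated with nanoceria, and the 5 ground arrays comprised 2 of untreated cells (replicates 1 and 3) and 3 of treated cells. Ground untreated replicate 2 was not analysed here. The flight units held nanoceria at 100 µg/ml in differentiation medium, a low-serum medium that favours fusion. Nanoceria is cerium oxide in nanoparticle form, here coated with serum before use. Cells of passage 6 to 12 were seeded at 35000 per square centimetre, put into closed flight hardware on day 1 and fixed on day 10. The flight units were packed in a pouch at 27 °C, launched on day 4 and placed at 37 °C aboard the International Space Station on day 7. The logged temperature course was replayed later on the ground in units activated by hand. Gravity regime therefore cannot be told apart from the culture run, the launch and the manner of activation. The labels give each array its own sample but do not say whether these were separate cultures, so p-values measure only the spread between these samples.

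Each value below is a log2 intensity, and each difference is space minus ground on the log2 scale with treatment as a term, given with its standard error (SE). A difference of 1 is a doubling. Array values are listed untreated first and by replicate number. The defining markers of H9c2 were checked first. Acta2 and Tagln, which encode smooth muscle actin and transgelin, ran from 12.60 to 13.55 and 12.87 to 13.57 over the 8 arrays. The smooth muscle gene Cnn1 was also high at 10.24 to 12.38, whereas Myh11 lay mostly below the median gene (7.14) at 6.27 to 7.47. Myog, a driver of muscle differentiation, ran from 6.25 to 9.89 and skeletal actin Acta1 from 7.52 to 10.81, so these 2 differentiation genes varied between arrays. Cardiac genes were mixed. Troponin T gene Tnnt2 was high at 9.18 to 11.44, the transcription factor gene Nkx2-5 at 6.95 to 7.41 lay near the median gene (7.14), and Nppa and Myl7 at 5.71 to 7.07 and 6.22 to 6.58 lay below it. Gata4 also lay below the median gene at 5.68 to 6.64, and Nppb lay near it at 6.83 to 7.19. All 10 endothelial, 10 of 11 neural and 9 of 11 blood markers lay below the median gene. Of 11 fibroblast markers 5 did so, with list medians of 6.97 to 7.27 in space and 7.04 to 7.33 on ground. Others of that list were high, among them Dcn at 11.02 to 12.44, Thy1 at 9.91 to 11.60 and S100a4 at 10.12 to 11.63. Among the epithelial markers 8 of 11 lay below it, with Krt8 high at 10.42 to 12.15. Of the endothelial, neural, blood, fibroblast and epithelial markers, 1 of blood (lower in space) and 1 of fibroblasts (higher in space) reached an unadjusted p below 0.05.

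After adjustment over all 23188 probe sets (limma, Benjamini-Hochberg), 0 genes passed the threshold of 0.05, and the smallest adjusted p was 0.0580, for Nek1. Accordingly genes are described below as lying higher or lower, not as changed. At an unadjusted p below 0.05, 781 genes (5.19%) lay higher in space and 733 (4.87%) lower. These shares are the background for the list counts below. All 3 space arrays lay above all 5 ground arrays in 295 genes (1.96%) and below them in 522 genes (3.47%). The size of the differences was lopsided. A difference of 1 or more was found in 143 genes higher in space (0.951%) and in 13 lower (0.0865%), although the median gene lay at -0.054 with 5974 genes (39.7%) higher and 9063 (60.3%) lower. The large differences therefore lay mostly upward while small downward ones were more numerous, as the plot of difference against level shows.

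**Figure D1:**
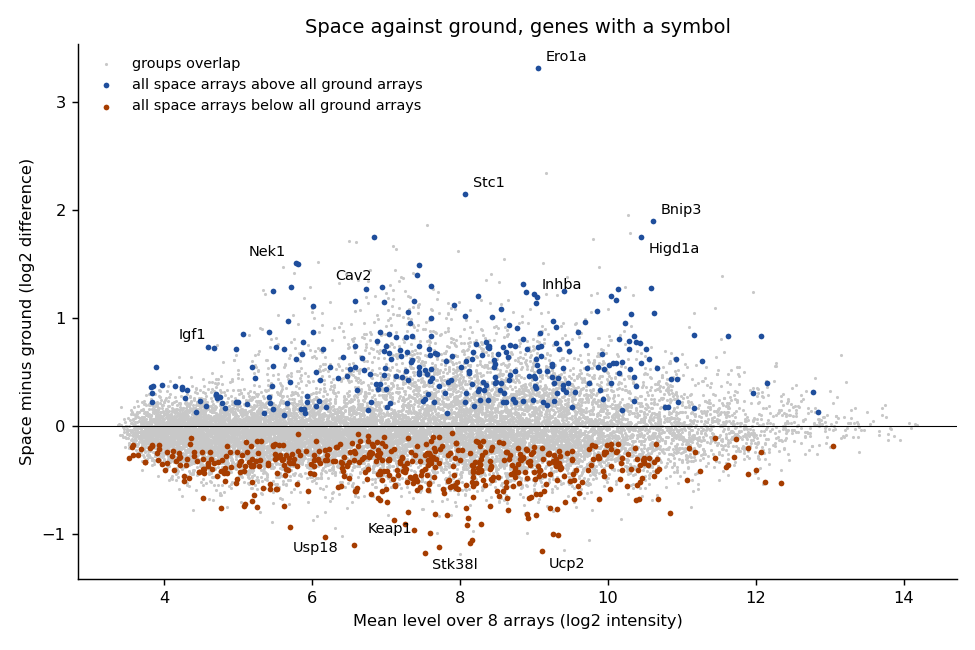
Difference between space and ground (log2, treatment as a term) against mean level over the 8 arrays (log2 intensity) for 15037 genes. Coloured points are genes whose 3 space arrays all lie above (295) or all below (522) the 5 ground arrays, and Ero1a lies highest at 3.32.

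The 3 space arrays lay close together and the 5 ground arrays did not. The median gene had an SD of 0.14 over the space arrays and 0.27 over the ground arrays. Among the 143 genes that were higher by 1 or more, 139 were higher in both treatments and 125 had an unadjusted p below 0.05. Their highest ground array was untreated replicate 1 in 75 genes, nanoceria replicate 2 in 40 and untreated replicate 3 in 28, and never nanoceria replicate 1 or 3 (0 genes). Of the 143, 21 belonged to the lists of hypoxia targets and glycolysis, 11 to mitosis and replication and 4 to cilium and centrosome. These lists hold 64, 94 and 47 of all 15037 genes. Only 45 of the 143 were in any list, as were 1694 of all genes.

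Of the lists described, that of genes responding to low oxygen had the largest share of members at an unadjusted p below 0.05. When oxygen is plentiful, prolyl hydroxylases mark the alpha subunits of HIF, the hypoxia-inducible factor, for destruction. When it is scarce, HIF accumulates, binds short DNA elements with the core ACGTG near its targets, and turns on glucose uptake, glycolysis, mitophagy and blood vessel signals. Of 32 measured hypoxia targets outside glycolysis, 27 lay higher in space (39.7% of all genes did). At an unadjusted p below 0.05, 20 were higher (62.5%, against 5.19% of all genes) and 0 were lower. The groups did not overlap in 12 of them, all higher (1.96% of all genes were apart and higher). The list's median difference was 0.84, at 1.13 in untreated and 0.61 in treated cells. Relative to each gene's mean, the list median was 0.52, 0.23 and 0.60 on the space arrays and -0.57, -0.25, -0.53, 0.41 and -0.43 on the ground arrays. Ground nanoceria replicate 2 thus sat within the range of the space arrays, and in 23 of the 32 genes it was the highest ground array. Here and below, arrays were left out 1 at a time. The median ran from 0.61 (without space untreated replicate 1) to 1.00 (without ground nanoceria replicate 2). The count of 20 was 9 and 12 without space untreated replicate 1 and space nanoceria replicate 2.

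The largest difference of all genes was in Ero1a, an oxidase that drives disulphide bonding in the endoplasmic reticulum. Its level was 11.51 in untreated and 10.67 and 11.21 in treated cells in space, against 6.57 and 8.55 in untreated and 7.02, 10.05 and 6.86 in treated cells on ground. All space arrays were above all ground arrays, but ground nanoceria replicate 2 was within 1 unit of the lowest space array. The difference was 3.32 ± 0.76 (adjusted p = 0.354). Stc1, which encodes the secreted hormone stanniocalcin, read 9.50 in untreated and 9.11 and 9.67 in treated cells in space, against 6.97 and 6.87 in untreated and 6.89, 8.85 and 6.71 in treated cells on ground. Again ground nanoceria replicate 2 lay nearest to space, and the other ground values stayed between 6.71 and 6.97. The difference of 2.15 ± 0.46 (adjusted p = 0.334) became 2.59 ± 0.17 without ground nanoceria replicate 2, with an adjusted p of 0.0191. Bnip3, a receptor that marks mitochondria for removal by autophagy, was at 11.91 in untreated and 11.50 and 11.99 in treated cells in space, against 9.57 and 10.21 in untreated and 9.06, 11.08 and 9.59 in treated cells on ground, a difference of 1.90 ± 0.41. Higd1a, a small protein of the respiratory chain, ran from 11.27 to 11.86 in space and 9.17 to 11.16 on ground and Vegfa, the growth factor for blood vessels, from 11.99 to 12.31 in space and 10.43 to 11.95 on ground. Both were apart, at 1.75 ± 0.39 and 0.84 ± 0.24.

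Enzymes of glycolysis and glycogen handling lay higher as well. Of 32 measured genes, 28 were higher (39.7% of all genes were). At an unadjusted p below 0.05, 12 were higher (37.5%, against 5.19% of all genes) and 0 lower, with 1 gene apart. The median difference was 0.47, at 1.06 in untreated and 0.16 in treated cells. Relative to each gene's mean, the list median was -0.76 on ground untreated replicate 1 and 0.40 on ground nanoceria replicate 2. The difference was 0.17 with 1 gene at the threshold when space untreated replicate 1 was left out, and 0.63 with 19 genes without ground nanoceria replicate 2. The count was 4 when space nanoceria replicate 2 was dropped, 7 without ground untreated replicate 1 and 6 without ground nanoceria replicate 1 or replicate 3. Gbe1, the glycogen branching enzyme, was the gene whose groups were apart. It read 9.92 in untreated and 9.16 and 9.92 in treated cells in space, against 8.39 and 8.75 in untreated and 7.49, 9.02 and 8.23 in treated cells on ground, a difference of 1.32 ± 0.33. Pdk1, the kinase that closes the entry of pyruvate into mitochondria, differed by 2.35 ± 0.74 with levels of 10.24 to 10.97 in space and 6.59 to 10.39 on ground. Its overlap came from ground nanoceria replicate 2 at 10.39, while the other 4 ground arrays lay at 8.86 or below. Pygl, a glycogen phosphorylase, and the enolase Eno2 differed by 1.31 ± 0.37 and 0.92 ± 0.29, with overlap from the same array.

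Genes for collagens and their processing lay on both sides. Of 30 genes for collagens and their processing, 4 were higher (13.3%, against 5.19% of all genes) and 1 lower (3.33%, against 4.87%) at an unadjusted p below 0.05. The 4 higher genes encode enzymes that modify collagen chains. Of these, P4ha1, P4ha2 and Plod2 also belong to the list of hypoxia targets and are counted there. The collagen count is therefore largely not a separate result. The count of higher genes was 1 with space untreated replicate 1 left out and 2 with ground nanoceria replicate 3 or space nanoceria replicate 2 left out. Differences were 1.05 ± 0.32 for P4ha1 and 1.29 ± 0.45 for P4ha2, subunits of the prolyl hydroxylase that stabilises the collagen helix. The lysyl hydroxylase Plod2 differed by 1.79 ± 0.59 and the lysyl oxidase-like Loxl2 by 0.50 ± 0.19. In all 4 the overlap came from ground nanoceria replicate 2. P4ha2 was 0.82 and Loxl2 0.33 without space untreated replicate 1. None of the 30 genes had groups apart.

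The genes that run oxygen sensing did not stand out. Among 12 genes for HIF subunits and their regulators, 0 reached an unadjusted p below 0.05. In 1 of them all space arrays lay below all ground arrays (3.47% of all genes did). With 1 array left out, 1 gene was lower at that threshold, except without ground nanoceria replicate 1 (0 genes). The higher ones numbered 1 without space untreated replicate 1 or ground nanoceria replicate 3 and 0 otherwise. Hif1a read 10.20 in untreated and 9.84 and 9.76 in treated cells in space, against 9.91 and 10.53 in untreated and 8.71, 9.79 and 9.30 in treated cells on ground, and the difference of 0.33 ± 0.26 was -0.024 in untreated and 0.53 in treated cells. Hif1a was 0.14 without ground nanoceria replicate 1 and 0.53 without space untreated replicate 1. Epas1, which encodes HIF-2alpha, was dim on every array at 4.09 to 4.57 in space and 4.04 to 4.48 on ground. Hif1an, an asparagine hydroxylase that blocks HIF activity, differed by -0.61 ± 0.27 with overlapping groups, and by -0.37 without space nanoceria replicate 1.

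Upstream sequences of these genes were searched for the HIF core. The letters ACGTG on either strand (CACGT on the other, which also form the E-box CACGTG that clock and MYC factors bind) were sought from 250 bases before to 50 after each RefSeq start in GRCr8, for 12435 genes with a promoter. They were present in 22.1% of all promoters, in 17 of 27 hypoxia targets and in 15 of 30 glycolysis genes. Among promoters of genes higher by 1 or more, 40.4% of 114 had them, and 36.1% of the 97 outside both lists. Of genes at an unadjusted p below 0.05, 30.0% of 643 higher and 25.2% of 618 lower ones had them. The median difference in the 2 lists was 0.73 for 32 genes with the letters and 0.42 for 25 without. The median G and C content was 58% over all promoters, 65% over hypoxia targets and 61% over glycolysis genes. The share of genes higher at that threshold was 3.15% in the 3173 promoters with least and 7.92% in the 3005 with most G and C. The part of base composition in these shares was not tested, and a match describes letters, not a bound site.

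The 150 bases before the start are shown for 4 genes described above that have the letters there, picked after their values were seen. They are also shown for Nek1, the gene with the smallest p, which lacks the letters. Higd1a, Vegfa, Pdk1, P4ha1 and Pygl, described above and higher in space, lack them in these 150 bases too. In the longer window searched, Vegfa has 0 matches and the other 4 have 1 or 2. Conversely, some members of the hypoxia and glycolysis lists have the letters in these 150 bases but differed little. Among them were Pfkfb3 (0.053), Aldoc (0.0074), Pfkm (-0.16), Pygm (0.090) and Gapdh (0.19). Capitals mark ACGTG on either strand. The windows are at chr1:203154963-203155112 (minus strand), chr11:22181126-22181275 (plus strand), chr4:159267221-159267370 (minus strand), chr10:38743744-38743893 (plus strand) and chr16:34128577-34128726 (minus strand) in GRCr8, from RefSeq, and each is written 5′ to 3′ along the gene.
Bnip3: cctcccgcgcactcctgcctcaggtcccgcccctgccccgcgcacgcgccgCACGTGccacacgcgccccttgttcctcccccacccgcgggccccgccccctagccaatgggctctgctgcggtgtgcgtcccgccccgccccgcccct
Gbe1: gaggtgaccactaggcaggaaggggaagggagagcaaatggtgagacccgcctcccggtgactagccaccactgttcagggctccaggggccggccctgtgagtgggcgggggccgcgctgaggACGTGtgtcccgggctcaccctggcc
Eno2: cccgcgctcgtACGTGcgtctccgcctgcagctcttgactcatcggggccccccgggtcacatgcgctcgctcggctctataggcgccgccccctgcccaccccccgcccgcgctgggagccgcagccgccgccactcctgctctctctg
P4ha2: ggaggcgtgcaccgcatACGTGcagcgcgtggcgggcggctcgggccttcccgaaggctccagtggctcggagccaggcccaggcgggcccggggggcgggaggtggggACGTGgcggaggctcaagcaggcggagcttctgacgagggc
Nek1: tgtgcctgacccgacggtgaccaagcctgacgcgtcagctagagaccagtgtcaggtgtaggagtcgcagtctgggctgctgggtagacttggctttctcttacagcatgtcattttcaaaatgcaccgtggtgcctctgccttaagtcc
The match starts 26 bases before the start in Gbe1 and 139 bases before it in Eno2. In Bnip3 it lies inside CACGTG, which matches on both strands, and P4ha2 has 2 separate matches. Promoters of Ero1a and Stc1 were not analysed here.

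**Figure D2:**
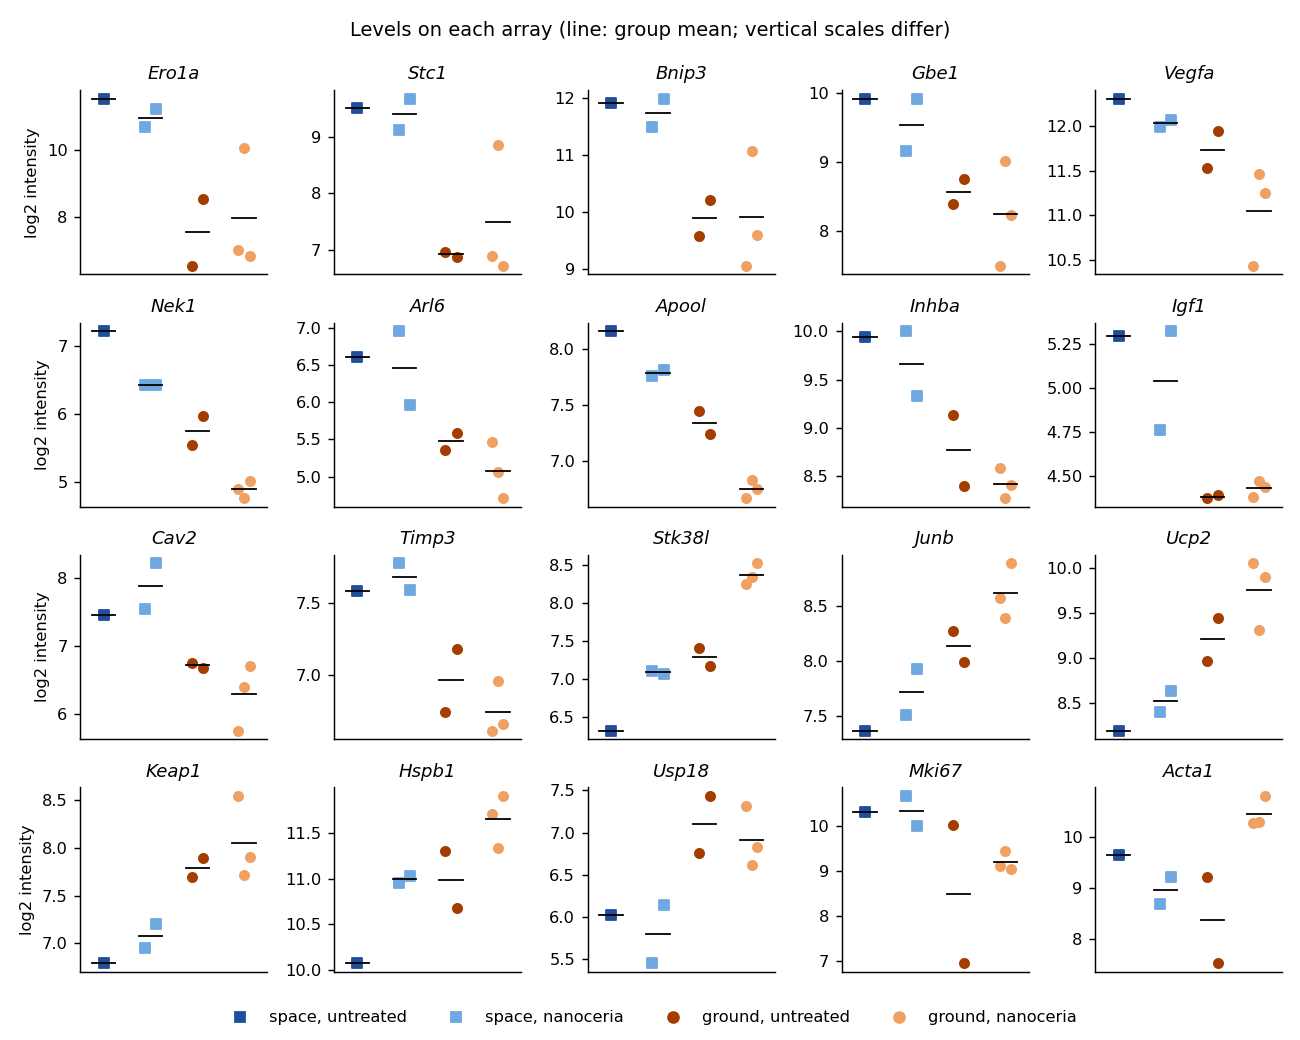
Levels (log2 intensity, vertical scales differ) of 20 genes on each of the 8 arrays, grouped by regime and treatment, with lines at group means. The space arrays lie above the ground arrays in the first 12 panels and below them in Stk38l, Junb, Ucp2, Keap1 and Usp18, while Hspb1, Mki67 and Acta1 overlap.

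Nek1 had the smallest p of all genes. It encodes a kinase of the NIMA family that localises to centrosomes and the base of the primary cilium, the antenna-like organelle built on a centriole, and takes part in the DNA damage response. Nek1 read 7.22 in untreated and 6.43 and 6.43 in treated cells in space, against 5.55 and 5.97 in untreated and 4.90, 4.76 and 5.02 in treated cells on ground. Within each treatment every space array exceeded every ground array, and the difference was 1.51 ± 0.14 (adjusted p = 0.0580). It passed the threshold when only probe sets with a symbol were fitted (adjusted p = 0.0380), with array weights (adjusted p = 0.00789) and without ground untreated replicate 3 (adjusted p = 0.0495).

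Most genes of a list of cilium and centrosome genes and NEK kinases, which includes Nek1, lay higher. Of 47 measured, 40 were higher (39.7% of all genes were). At an unadjusted p below 0.05, 13 were higher (27.7%, against 5.19% of all genes) and 0 lower. Groups were apart in 5, Nek1 among them (1.96% of all genes were apart and higher). The median was 0.23, at 0.089 in untreated and 0.34 in treated cells. Relative to each gene's mean, the list median was 0.21, 0.13 and 0.13 on the space arrays. On the ground arrays it was 0.038, 0.17, -0.30, -0.12 and -0.27, so ground untreated replicate 3 lay within the space range. The difference had the same sign in both treatments in 27 of the 47 genes, against 59.7% of all genes. Arl6, a small GTPase that recruits the BBSome coat for ciliary cargo, read 6.60 in untreated and 6.96 and 5.96 in treated cells in space, against 5.36 and 5.59 in untreated and 5.47, 5.06 and 4.71 in treated cells on ground. Its groups were apart with a difference of 1.29 ± 0.25. Sclt1, of the appendages that dock the centriole at the membrane, differed by 0.92 ± 0.21 and Pcm1, the scaffold of centriolar satellites, by 0.97 ± 0.24. In both, untreated ground arrays overlapped the space arrays. Pcm1 read 8.96 in untreated and 8.84 and 8.59 in treated cells in space, against 8.89 and 8.57 in untreated and 7.24, 7.56 and 7.19 in treated cells on ground, so that the low values were those of the 3 treated ground arrays. The count of 13 higher genes was 8 without space nanoceria replicate 1 and 9 without replicate 2, and over all arrays left out in turn the median was 0.22 to 0.34.

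Genes of mitochondrial shape and of vesicle traffic lay on both sides. Apool, a component of the complex that shapes the cristae folds, read 8.16 in untreated and 7.76 and 7.81 in treated cells in space, against 7.44 and 7.24 in untreated and 6.67, 6.83 and 6.75 in treated cells on ground. The difference was 0.96 ± 0.12 (adjusted p = 0.172), and its paralogue Apoo differed by 0.47 ± 0.16. The fission GTPase Dnm1l and the inner membrane protease Yme1l1 differed by 0.96 ± 0.28 and 0.93 ± 0.36, with overlap. Over 30 genes of mitochondrial dynamics, 4 were higher (13.3%, against 5.19% of all genes) and 1 lower (3.33%, against 4.87%) at the unadjusted threshold. With 1 array left out, 0 to 3 were lower. Chm, an escort protein that presents Rab GTPases for lipid attachment, was at 7.61 to 8.34 in space and 6.31 to 7.58 on ground, so that the groups nearly touched, with a difference of 1.05 ± 0.16. Its close relative Chml differed by 0.65 ± 0.22 (0.36 without space nanoceria replicate 1) and the late endosomal Rab9a by 0.87 ± 0.27, against -0.37 ± 0.13 for the Rab effector Rabep2. Of 49 traffic genes, 4 were higher (8.16%, against 5.19% of all genes) and 3 lower (6.12%, against 4.87%) at that threshold, near the background. The higher ones numbered 2 with space nanoceria replicate 1 left out, and the lower ones 1 with space untreated replicate 1 left out, 0 with space nanoceria replicate 1 left out, 7 with ground untreated replicate 1 left out and 5 with ground nanoceria replicate 3 left out.

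Several growth factors and receptors lay higher in space. Activins, BMPs and TGF-beta act through paired receptor kinases on SMAD proteins, and IGF-1 and IGF-2 act through the insulin receptor substrates to favour muscle growth. Inhba, the subunit of activin A, read 9.94 in untreated and 10.01 and 9.32 in treated cells in space, against 9.13 and 8.40 in untreated and 8.58, 8.27 and 8.41 in treated cells on ground. All space arrays were higher, by 1.22 ± 0.21. The BMP receptor Bmpr2 and the coreceptor Tgfbr3 were also apart, at 0.72 ± 0.18 and 0.66 ± 0.22, while the ligand Tgfb1 lay at -0.47 ± 0.18 with overlap. In this list of 38 genes, 5 were higher (13.2%, against 5.19% of all genes) and 2 lower (5.26%, against 4.87%) at an unadjusted p below 0.05. The higher ones numbered 3 with ground nanoceria replicate 1 or 3 or space nanoceria replicate 1 or 2 left out, and the lower ones 0 with ground nanoceria replicate 2, ground untreated replicate 3 or space untreated replicate 1 left out and 1 with ground nanoceria replicate 1 or 3 or space nanoceria replicate 2 left out. Igf1 was dim but apart, at 5.30 in untreated and 4.76 and 5.33 in treated cells in space, against 4.37 and 4.39 in untreated and 4.38, 4.47 and 4.44 in treated cells on ground, a difference of 0.72 ± 0.15. Igf2 read 10.71 in untreated and 10.04 and 10.85 in treated cells in space, against 9.79 and 8.18 in untreated and 9.39, 9.97 and 9.89 in treated cells on ground, and, with groups apart, its difference of 1.06 ± 0.39 was 0.70 without space untreated replicate 1. The docking proteins Irs2 and Irs1 differed by 0.62 ± 0.21 and 0.37 ± 0.14. Of 25 genes of insulin and IGF signalling, 4 were higher and 1 lower (5.19% and 4.87% of all genes were), with a median of 0.19 that was 0.12 with space nanoceria replicate 1 left out. The higher ones numbered 2 with ground nanoceria replicate 1 or space untreated replicate 1 left out and 7 with ground nanoceria replicate 2 left out, and the lower ones 0 to 2 with 1 array left out.

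Mechanosensing and matrix genes lay on both sides. Channels that open on membrane stretch, caveolae that flatten under tension and the dystrophin complex couple cells to load. Cav2, a caveolin, read 7.46 in untreated and 7.55 and 8.21 in treated cells in space, against 6.76 and 6.68 in untreated and 5.76, 6.41 and 6.72 in treated cells on ground, and the groups were apart with a difference of 1.29 ± 0.27. The cation channels Trpc1 and Trpm7 differed by 0.86 ± 0.20 and 1.15 ± 0.40, and Trpm4 by -0.37 ± 0.11. Trpm7 read 8.97 in untreated and 8.40 and 8.54 in treated cells in space, against 9.27 and 8.31 in untreated and 6.70, 7.47 and 6.18 in treated cells on ground, a difference of 1.69 in treated and 0.18 in untreated cells. Of 30 mechanosensors, 7 were higher (23.3%, against 5.19% of all genes) and 2 lower (6.67%, against 4.87%) at an unadjusted p below 0.05. The count of higher ones was 3 without the first treated space array and 4 without the other or without ground nanoceria replicate 3. Among 47 matrix genes other than collagens, 3 were higher and 3 lower (6.38% each, near the 5.19% and 4.87% of all genes). With 1 array left out these ran from 2 to 6 and 1 to 6. Timp3, an inhibitor of matrix proteases, differed by 0.82 ± 0.16 and the proteoglycan Vcan by 0.79 ± 0.20, against -0.63 ± 0.14 for Ltbp2, a microfibril protein, and -0.55 ± 0.22 for the protease Mmp11 (-0.35 without space nanoceria replicate 2).

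Chromatin regulators were also spread over both sides. Smarca2, the ATPase of SWI/SNF remodelling complexes, read 10.18 in untreated and 9.58 and 9.96 in treated cells in space, against 9.48 and 9.49 in untreated and 8.72, 9.07 and 9.04 in treated cells on ground, a difference of 0.77 ± 0.14 with groups apart. Taf1, the large subunit of TFIID, differed by 1.32 ± 0.39 with 0.18 in untreated and 1.96 in treated cells. Its 3 treated ground arrays, at 4.73, 4.90 and 5.49, lay below the other 5 arrays, a pattern shared with Pcm1, Sclt1 and Trpm7 above. In the other direction, Taf6l, a component of histone acetyltransferase complexes, read 7.03 in untreated and 7.98 and 7.64 in treated cells in space, against 8.22 and 8.08 in untreated and 8.94, 8.47 and 8.43 in treated cells on ground. Its groups were apart at -0.92 ± 0.17, as were those of the histone methyltransferase Ehmt2 at -0.41 ± 0.12. Of 51 chromatin modifiers, 8 were higher (15.7%, against 5.19% of all genes) and 4 lower (7.84%, against 4.87%) at an unadjusted p below 0.05. The higher ones numbered 5 with space nanoceria replicate 1 left out, and the lower ones 2 with ground nanoceria replicate 1 or 2, ground untreated replicate 3 or space nanoceria replicate 1 or 2 left out.

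Other genes among those with the smallest p and groups apart belonged to no common list. Higher in space were Arhgap12, a GTPase-activating protein (1.11 ± 0.17), the zinc finger gene Zfp292 (1.16 ± 0.20), the caspase Casp12 (1.01 ± 0.17) and Npr3, the receptor that clears natriuretic peptides (0.86 ± 0.15). The bicarbonate transporter Slc4a4 (0.97 ± 0.17), the lipid transporter Abca4 (1.27 ± 0.23) and the inositol transporter Slc5a3 (0.69 ± 0.13) followed. Among the largest differences apart were those of Nampt, the enzyme that recycles nicotinamide to NAD (1.76 ± 0.53), and Ppp4r3b, a phosphatase subunit (1.49 ± 0.42). Ground values of Nampt ran from 4.50 to 7.46, a wider range than its difference. Adjusted p ran from 0.299 (Arhgap12) to 0.398 (Nampt) in this set (limma, Benjamini-Hochberg).

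Among genes lower in space, Stk38l had the smallest p. It encodes NDR2, a kinase of the Hippo network, which restrains the growth coactivator YAP. Stk38l read 6.32 in untreated and 7.11 and 7.07 in treated cells in space, against 7.41 and 7.17 in untreated and 8.25, 8.34 and 8.53 in treated cells on ground. All space arrays lay below all ground arrays, and the treated space arrays were close to ground untreated replicate 3. The difference was -1.17 ± 0.13 (adjusted p = 0.172, and 0.0349 with array weights). YAP binds DNA through TEAD factors, and AP-1, built from JUN and FOS proteins, often shares its targets. Tead1 differed by 0.81 ± 0.16, whereas Junb and Jun differed by -0.85 ± 0.16 and -0.62 ± 0.14, all with groups apart. Junb read 7.37 in untreated and 7.51 and 7.93 in treated cells in space, against 8.27 and 7.99 in untreated and 8.57, 8.39 and 8.89 in treated cells on ground. Of 35 genes of YAP, SRF and AP-1, 3 were higher (8.57%) and 4 lower (11.4%) at an unadjusted p below 0.05. The shares of all genes were 5.19% and 4.87%.

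Keap1, the sensor that holds the antioxidant regulator NRF2 in check, was lower in space. It read 6.79 in untreated and 6.95 and 7.21 in treated cells in space, against 7.70 and 7.89 in untreated and 8.55, 7.72 and 7.91 in treated cells on ground, with groups apart and a difference of -0.99 ± 0.19. Nfe2l2, which encodes NRF2, differed by 0.26 ± 0.19 with overlap, and by 0.11 without ground nanoceria replicate 1. Of 36 NRF2 targets, 6 were higher and 30 lower, where 60.3% of all genes were lower. At an unadjusted p below 0.05, 4 were lower (11.1%, against 4.87% of all genes), and the median was -0.22. Blvrb, a biliverdin reductase, and the glutathione enzymes Gss and Gstm1 were the other lower ones, at -0.67 ± 0.23, -0.73 ± 0.28 and -0.45 ± 0.19. Without space untreated replicate 1, Blvrb was -0.43 and Gstm1 -0.27. Ground untreated replicate 3 was high in this list at 0.72 relative to the mean, the other ground arrays lay at -0.12 to 0.10, and the median was -0.085 without it and -0.067 without space untreated replicate 1. The count of 4 was 1 without the latter and 9 without ground untreated replicate 1. Among 30 antioxidant enzymes, 24 were lower (60.3% of all genes were), with a median of -0.16. Only 1 reached the threshold, Ccs, the copper chaperone of superoxide dismutase (-0.46 ± 0.19). That count was 0 with ground nanoceria replicate 1, space nanoceria replicate 1 or 2 or space untreated replicate 1 left out, 5 with ground untreated replicate 1 left out, 3 with ground nanoceria replicate 2 left out and 2 with ground nanoceria replicate 3 left out.

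Genes of fatty acid oxidation lay lower, led by Ucp2, a carrier of metabolites in the inner mitochondrial membrane. Ucp2 read 8.19 in untreated and 8.40 and 8.63 in treated cells in space, against 8.96 and 9.44 in untreated and 10.05, 9.31 and 9.89 in treated cells on ground. Every space array was below every ground array, with a difference of -1.16 ± 0.20 (adjusted p = 0.320). Of 27 genes, 21 were lower (60.3% of all genes were). At an unadjusted p below 0.05, 1 was higher (3.70%, against 5.19% of all genes) and 6 were lower (22.2%, against 4.87%). They included the acyl-CoA dehydrogenases Acads (-0.58 ± 0.14) and Acadvl (-0.55 ± 0.17) and the carnitine transferase Cpt2 (-0.36 ± 0.12). The median was -0.16, -0.10 without ground untreated replicate 3 and -0.25 without replicate 1. The count of 6 was 2 without space untreated replicate 1 and 3 without space nanoceria replicate 2. Of 66 subunits of oxidative phosphorylation 1 was higher (1.52%) and 2 lower (3.03%), and of 65 mitochondrial ribosome genes 0 and 1 (1.54%), all below the background. Their medians of -0.035 and -0.10 were 0.020 and 0.0048 without ground nanoceria replicate 1, and their counts of lower genes ran from 0 to 4 and 1 to 3 with 1 array left out. Cytosolic ribosomal protein genes lay higher in 64 of 68 (39.7% of all genes did). At the threshold 5 were higher (7.35%, near the background), with a median of 0.11 (0.072 with ground nanoceria replicate 2 left out). List medians by array overlapped, at -0.0042 to 0.12 in space and -0.12 to 0.095 on ground. With replicate number as a block the median was 0.056 and 0 genes were at the threshold. The count of 5 was 1 with space nanoceria replicate 2 or space untreated replicate 1 left out, 3 with ground untreated replicate 3 left out and 8 with ground nanoceria replicate 1 left out. Those with the smallest p were Rpl39 (0.41 ± 0.12), Rps3a (0.40 ± 0.14), Rps6 (0.32 ± 0.11) and Rpl5 (0.33 ± 0.12).

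Heat shock genes lay on both sides. Heat shock proteins keep other proteins folded, and CIRBP and RBM3 are RNA-binding proteins that mild cold induces. Hspb1 read 10.08 in untreated and 10.96 and 11.03 in treated cells in space, against 11.30 and 10.68 in untreated and 11.70, 11.34 and 11.90 in treated cells on ground. Both treated space arrays were below the treated ground arrays and the untreated space array was below both untreated ground arrays, and Hspb1 differed by -0.75 ± 0.19. The crystallin Cryab, the HSP110 chaperone Hsph1 and the cochaperone Dnajb2 had groups apart at -0.45 ± 0.14, -0.42 ± 0.14 and -0.34 ± 0.12, as did Cdc37, which loads kinases onto HSP90, at -0.68 ± 0.13. Of 42 heat shock genes, 18 lay higher and 24 lower, and the median of -0.066 was near that of all genes. At an unadjusted p below 0.05, 1 was higher (2.38%, against 5.19% of all genes) and 4 were lower (9.52%, against 4.87%). Groups were apart and lower in 3 of the list, so not all the lower genes named here belong to it. The count of 4 was 2 without space untreated replicate 1 or space nanoceria replicate 2. Of 7 genes of the response to cold, 2 were lower (28.6%, against 4.87% of all genes), and 1 to 2 with 1 array left out. Cirbp differed by -0.48 ± 0.18 and Rbm3 by 0.16 ± 0.12, both with overlap. Cirbp was -0.31 without space nanoceria replicate 1 and Rbm3 0.10 without space untreated replicate 1.

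More interferon and inflammation genes lay lower than higher. Interferons act through STAT and IRF factors on a common set of antiviral genes. Usp18, a protease that removes the ubiquitin-like ISG15 and damps the interferon receptor, read 6.03 in untreated and 5.45 and 6.14 in treated cells in space, against 6.76 and 7.44 in untreated and 7.31, 6.61 and 6.83 in treated cells on ground. Every space array was below every ground array, with a difference of -1.10 ± 0.24. Irf7 and Irf5, transcription factors of the pathway, were apart at -0.90 ± 0.27 and -0.31 ± 0.11, and Ifit2 lay the other way with overlap at 0.43 ± 0.17. Irf7 was -0.58 and Ifit2 0.66 without space untreated replicate 1. Of 37 interferon genes 28 were lower (60.3% of all genes were), 7 with groups apart (against 3.47% of all genes). At an unadjusted p below 0.05, 5 were lower (13.5%, against 4.87% of all genes), and the median was -0.11. The count at that threshold was 1 without space untreated replicate 1, 2 without space nanoceria replicate 1 and 3 without ground untreated replicate 3. In inflammation, 5 of 38 were lower at that threshold (13.2%, against 4.87% of all genes) and 1 was higher. The count of lower ones was 3 with space nanoceria replicate 1 or space untreated replicate 1 left out and 2 with space nanoceria replicate 2 left out. The subunits of NF-kappaB Nfkb2 and Rela differed by -0.48 ± 0.15 and -0.39 ± 0.14 and the ribonuclease Zc3h12a by -0.57 ± 0.19. The higher one was the cytokine Il6, at 8.93 in untreated and 8.11 and 8.46 in treated cells in space, against 8.63 and 8.21 in untreated and 7.51, 7.70 and 6.88 in treated cells on ground, a difference of 0.77 ± 0.22 with overlap.

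Further genes with groups apart and lower in space were Plekhh3 (-0.87 ± 0.15), the transcription factors Sall2 (-0.96 ± 0.18) and Tcf3 (-0.70 ± 0.13), of which Tcf3 encodes E proteins that pair with MyoD, and Baiap2, an adaptor that bends membranes at actin-rich edges (-1.01 ± 0.19). The mitochondrial glutamate carrier Slc25a22 (-1.28 in untreated and -0.85 in treated cells) and Ccdc8, a cofactor of a cullin complex (-0.60 ± 0.12), followed. By size, Gcat, a mitochondrial enzyme of threonine breakdown (-1.12 ± 0.33), Mcat, of mitochondrial fatty acid synthesis (-1.08 ± 0.25), and Rflnb, a partner of filamin (-1.06 ± 0.23), stood beside the growth factor Areg (-1.03 ± 0.40). Areg read 5.07 in untreated and 5.70 and 5.78 in treated cells in space, against 6.42 and 7.92 in untreated and 6.32, 6.10 and 6.11 in treated cells on ground, and its difference was -0.43 without space untreated replicate 1.

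**Figure D3:**
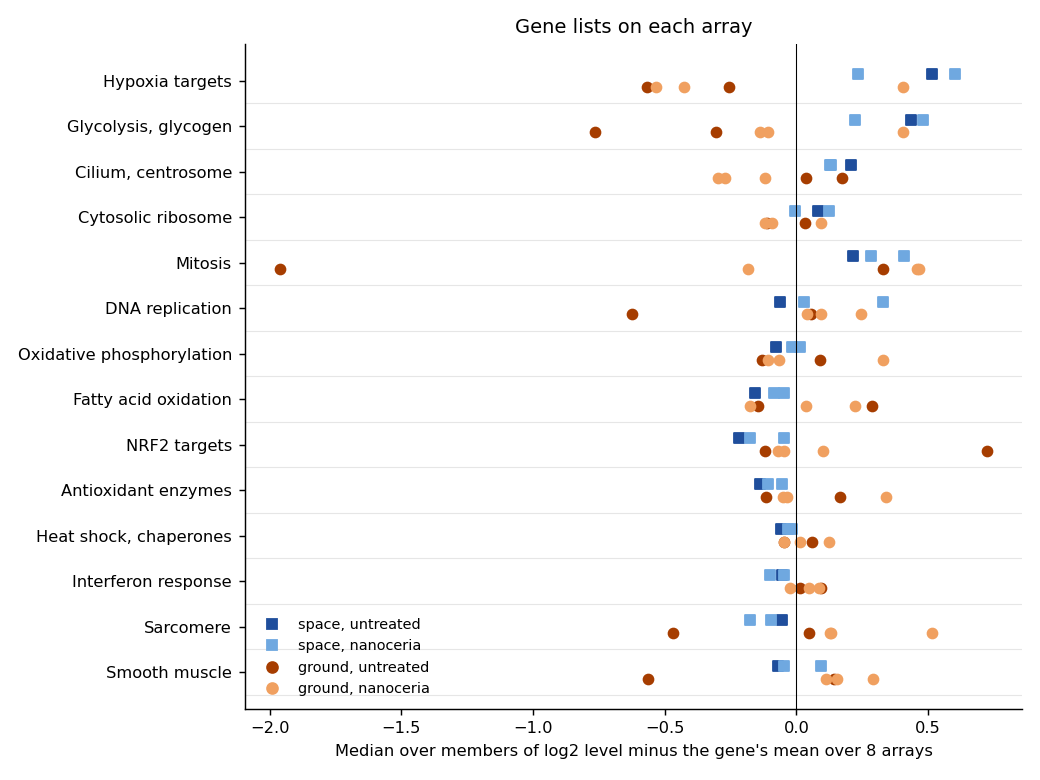
Median over the members of 14 gene lists of the log2 level minus each gene's mean over the 8 arrays, by array. Hypoxia targets run from 0.23 to 0.60 on the space arrays and from -0.57 to 0.41 on the ground arrays, and ground untreated replicate 3 is set apart in mitosis at -1.96 and in NRF2 targets at 0.72.

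Most sarcomere genes lay lower in space. Sarcomere genes are switched on as myoblasts differentiate. Of 37 measured, 28 were lower (60.3% of all genes were). At an unadjusted p below 0.05, 5 were lower (13.5%, against 4.87% of all genes) and 0 higher. The 5 included the crystallin Cryab, described above with the heat shock genes and the only member with groups apart. The median of -0.19 was -0.31 with space untreated replicate 1 left out and -0.33 with ground untreated replicate 3 left out. It was -0.12 with ground nanoceria replicate 3 left out. The list median was 0.15 in untreated and -0.31 in treated cells. The untreated value turned on ground untreated replicate 3, where the list lay at -0.47 relative to each gene's mean, against 0.047 on ground untreated replicate 1 and -0.054 on the untreated space array. Acta1 read 9.64 in untreated and 8.69 and 9.22 in treated cells in space, against 9.21 and 7.52 in untreated and 10.27, 10.29 and 10.81 in treated cells on ground, a difference of 1.27 in untreated and -1.50 in treated cells. The untreated space array lay near ground untreated replicate 1, so the untreated difference of Acta1 also turned on ground untreated replicate 3. The LIM protein Csrp3 and the slow troponin Tnni1 gave -0.24 and 0.040 in untreated and -1.40 and -1.57 in treated cells, and the slow tropomyosin gene Tpm3 differed by -0.31 ± 0.11 over both. The differences between treatments were not past the adjusted threshold for any gene. The count of lower genes was 12 without space untreated replicate 1, 10 without ground untreated replicate 3, 3 without ground untreated replicate 1 and 1 without space nanoceria replicate 1 or replicate 2. The regulators Myod1 and Myog differed by 0.032 ± 0.21 and 0.28 ± 0.61 and smooth muscle Acta2 by -0.019 ± 0.20, with signs that depended on which arrays were used. Of 26 myogenic regulators, 1 was higher (3.85%) and 3 lower (11.5%) at the unadjusted threshold, and of 14 smooth muscle genes 1 (7.14%) and 0. The shares of all genes were 5.19% and 4.87%. With 1 array left out the smooth muscle counts ran from 0 to 2 higher and 0 to 2 lower. Fbxo32, the ubiquitin ligase atrogin-1 of muscle atrophy, was apart at 9.03 in untreated and 9.50 and 9.22 in treated cells in space, against 8.63 and 8.41 in untreated and 7.63, 8.78 and 8.15 in treated cells on ground, a difference of 0.94 ± 0.26. Traf6, a ubiquitin ligase of the same list, differed by 0.47 ± 0.15. Of 15 atrophy genes, 2 were higher (13.3%) and 1 lower (6.67%) at the unadjusted threshold, and 1 to 3 and 0 to 1 with 1 array left out.

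Proliferation genes lay higher by their list medians, which depended on single untreated arrays. Of 43 mitosis genes 37 were higher (39.7% of all genes were). At an unadjusted p below 0.05, 4 were higher (9.30%, against 5.19% of all genes), and the median was 0.46. The count of 4 was 1 with ground nanoceria replicate 3, space nanoceria replicate 1 or space untreated replicate 1 left out, 16 with ground untreated replicate 1 left out and 2 with ground nanoceria replicate 1 left out, and 3 were lower without ground untreated replicate 3 where 0 were lower with all arrays. The list median was -1.96 on ground untreated replicate 3 and -0.18 to 0.47 on the other ground arrays, against 0.21 to 0.41 in space. Without that array the median difference was 0.078, without space untreated replicate 1 it was 0.10 and without ground untreated replicate 1 it was 0.76. Mki67, a marker of cycling cells, read 10.31 in untreated and 10.67 and 10.00 in treated cells in space, against 10.01 and 6.96 in untreated and 9.11, 9.44 and 9.05 in treated cells on ground. Ground untreated replicate 1 reached the space range, and the difference of 1.38 ± 0.58 was 0.89 without ground untreated replicate 3. Knl1, a kinetochore scaffold, and the kinesins Kif18a and Kif15 differed by 1.67 ± 0.44, 1.50 ± 0.54 and 1.42 ± 0.54. Among 51 replication genes, 7 were higher (13.7%, against 5.19% of all genes) and 0 lower at that threshold. The median of 0.13 was -0.0071 with space untreated replicate 1 left out and 0.25 with space nanoceria replicate 2 left out. It was 0.23 with ground untreated replicate 1 left out and -0.062 with ground untreated replicate 3 left out. The count of 7 was 4 with space nanoceria replicate 1 or 2 left out and 11 with ground untreated replicate 1 left out, and 2 were lower without ground untreated replicate 3. The clamp loader subunit Rfc1 (0.74 ± 0.15), the origin proteins Orc2 (0.88 ± 0.23) and Orc3 (0.50 ± 0.15) and the polymerase Pola1 (0.83 ± 0.23) had the smallest p, and Orc2 differed by 0.15 in untreated and 1.29 in treated cells. Of 29 genes of p53 and growth arrest, 5 were lower (17.2%, against 4.87% of all genes) and 0 higher, with the death-domain adaptor Pidd1 at -0.80 ± 0.20. That count was 1 with ground nanoceria replicate 3, ground untreated replicate 3 or space untreated replicate 1 left out, 2 with space nanoceria replicate 1 or 2 left out and 3 with ground nanoceria replicate 1 left out.

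Clock genes lay on both sides. Of 19, 3 were higher (15.8%, against 5.19% of all genes) and 1 lower (5.26%, against 4.87%) at the unadjusted threshold. With 1 array left out these ran from 1 to 4 and 0 to 1. Bhlhe40, a repressor of the clock and a hypoxia target, was apart at 11.64 in untreated and 11.68 and 11.79 in treated cells in space, against 10.10 and 10.83 in untreated and 10.58, 11.63 and 11.02 in treated cells on ground, a difference of 0.84 ± 0.27. Bhlhe40 is also counted among the hypoxia targets above. Bmal1 and Clock, which pair to drive the cycle, differed by 0.74 ± 0.29 and 0.63 ± 0.28. The difference of Clock was 0.38 without space nanoceria replicate 1 and 0.97 without space untreated replicate 1. Smaller differences were those of the repressor Ciart at 0.45 ± 0.17, the kinase Csnk1e at -0.25 ± 0.11 and the period gene Per2 at -0.19 ± 0.14, which was -0.033 without space untreated replicate 1. The hour of fixation is not given in the sources used here. A further 16 lists, among them splicing, DNA repair, chaperones of the endoplasmic reticulum, lipid synthesis, calcium handling and autophagy, had medians between -0.16 and 0.17. Of their 578 entries, 26 were higher (4.50%) and 30 lower (5.19%) at an unadjusted p below 0.05, shares near those of all genes.

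**Figure D4:**
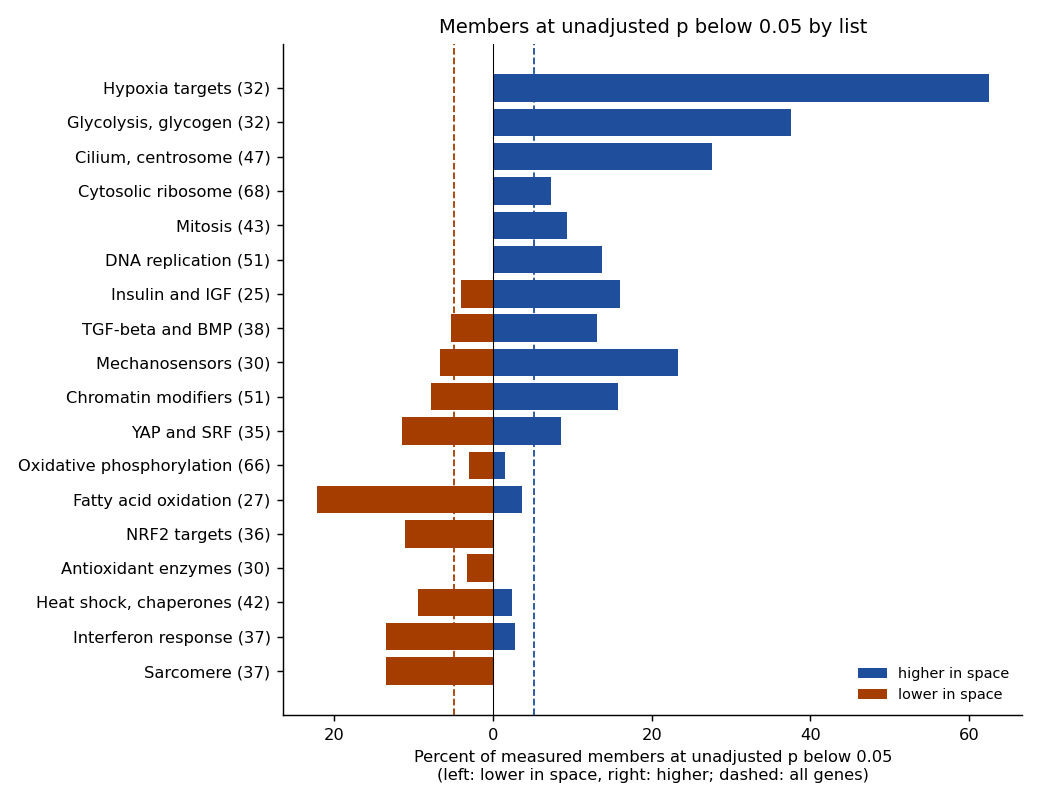
Percent of the measured members of 18 gene lists (number in parentheses) at an unadjusted p below 0.05, lower in space to the left and higher to the right, with dashed lines at the shares of all genes (4.87% and 5.19%). Hypoxia targets reach 62.5% and glycolysis 37.5% on the higher side, and fatty acid oxidation 22.2% on the lower side.

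Space and ground were then set against each other within each treatment, which uses separate arrays. In untreated cells 0 genes passed the adjusted threshold (limma, smallest adjusted p = 1.00) and 238 genes lay higher and 238 lower at an unadjusted p below 0.05 (1.58% each). In treated cells 0 passed (smallest adjusted p = 0.280) and 752 lay higher (5%) and 585 lower (3.89%). The fewer genes in untreated cells came with a larger median SE, 0.28 against 0.21, with 1 untreated against 2 treated space arrays. Of the 752 genes, 557 (74.1%) were also higher in untreated cells, where 44.8% of all genes were. Of the 585 genes, 440 (75.2%) were also lower there, against 55.2% of all genes. In the other direction, 190 of 238 genes (79.8%) higher in untreated cells were higher in treated cells (39.6% of all genes) and 192 of 238 (80.7%) lower ones were lower (60.4%). Across the 15037 genes, which are not independent replicates, the differences in the 2 treatments correlated with a Pearson r of 0.33 and a Spearman coefficient of 0.26.

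**Figure D5:**
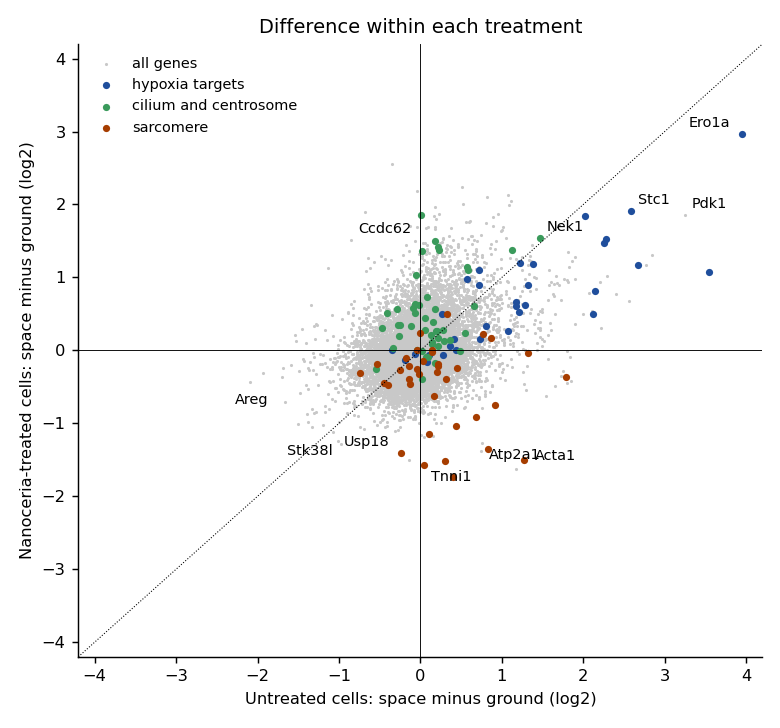
Difference between space and ground (log2) in untreated cells against that in nanoceria-treated cells for 15037 genes, with hypoxia targets, cilium and centrosome genes and sarcomere genes coloured and a dotted line of equality. Ero1a lies at 3.95 and 2.96, and Acta1 at 1.27 and -1.50.

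The space difference itself was tested between treatments. No gene passed (0 genes, smallest adjusted p = 1.00), and 214 genes (1.42%) had a larger and 143 (0.951%) a smaller difference with nanoceria at an unadjusted p below 0.05. In Ccdc62, Alcam and Hltf the 3 treated ground arrays lay below the other 5 arrays, and in Atp2a1 above them. Ccdc62, a coiled-coil protein, read 5.48 in untreated and 5.55 and 5.89 in treated cells in space, against 6.68 and 5.97 in untreated and 3.95, 4.57 and 4.09 in treated cells on ground, and the difference between treatments was 2.37 ± 0.47. Alcam, a cell adhesion molecule, and Hltf, a helicase-like ubiquitin ligase of replication forks, had differences of 1.68 ± 0.34 and 1.84 ± 0.42. Hltf read 7.33 in untreated and 7.68 and 7.29 in treated cells in space, against 7.38 and 7.25 in untreated and 5.99, 5.69 and 5.21 in treated cells on ground. Xdh, the xanthine oxidoreductase of purine breakdown, differed between treatments by 1.40 ± 0.32, with untreated space replicate 1 the lowest array at 7.57. In the opposite direction lay Atp2a1, the calcium pump of fast muscle, at -2.02 ± 0.39, Cth, an enzyme that makes cysteine, at -1.30 ± 0.30, the ciliary gene Fam161a at -1.52 ± 0.36 and Rab38 at -1.16 ± 0.27. Atp2a1 read 7.75 in untreated and 7.14 and 7.29 in treated cells in space, against 7.14 and 6.85 in untreated and 8.32, 8.21 and 8.90 in treated cells on ground.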

How the data were processed

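From 30 ng of total RNA of each of 8 H9c2 samples, 1 Clariom S Pico rat array was run. The deposited values are linear intensity per probe set (8.63 to 19506), which the authors summarised with RMA per the submitters' processing notes; its version and settings are not given in the sources used here. They were taken to log2 with no pseudocount, which keeps the deposited scaling (array medians 107 to 117). No read depth applies, and the number of arrays limits precision. limma 3.58.1 in R 4.3.3 fitted regime and treatment (5 residual degrees of freedom), and 1 mean per group for differences within treatments (4 degrees of freedom), with Benjamini-Hochberg adjustment over 23188 probe sets at 0.05. The procedure was tested on simulated data. Of the probe sets, 15049 had 1 symbol in the platform annotation, 8139 none and 0 several; symbols were counted once, at the brightest probe set. Gene lists, mapped through RefSeq names, had 1743 of 2049 entries measured.

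The comparison and the lists were chosen with earlier results of these data known. Genes named are the 12 per direction with the smallest p and the 8 with the largest difference among those whose space and ground arrays do not overlap (uncharacterised symbols passed over), up to 4 per list with the smallest p, regulators and markers named in the rule, and 4 per direction for the difference between treatments. Tagln, Cnn1, Myh11, Cdh15, Itga7, Des, Chrna1, Gata4, Nppa, Nppb, Myl7, Dcn, Thy1, S100a4 and Krt8 are markers of the identity check. Pfkfb3, Aldoc, Pfkm, Pygm and Gapdh are named for their upstream sequences only. Upstream sequences are RefSeq's, for GRCr8. Alternatives were 2 other scalings, 2 probe set selections, a pseudocount of 16, an intensity trend with robust prior, array weights, no treatment term, the mean of the differences within treatments, a replicate block, and each array left out.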

Additional observations from a re-analysis of the deposited data

Results flagged for a closer look

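The highest and lowest of the 5 ground arrays were compared with the other 4 by Dixon's gap test at its 95% critical value. This was done for the 31 lists described singly and for the genes named above. Genes named only for the identity check, for their upstream sequences or for the difference between treatments were left out. Of 155 values tested, 19 had 1 array set apart, and chance sets 1 apart in about 1 in 20 groups of like, independent arrays. Here the 5 ground arrays mix untreated and treated cells, and lists were tested beside their own members. Many genes were also named for their values on these arrays, so that rate is no yardstick for the 19. The list median relative to each gene's mean was set apart on ground untreated replicate 3 in NRF2 targets (0.72, others -0.12 to 0.10), smooth muscle (-0.56, others 0.11 to 0.29), mitosis (-1.96, others -0.18 to 0.47) and replication (-0.62, others 0.042 to 0.25). It was set apart on ground nanoceria replicate 1 in the genes that run oxygen sensing (-0.23, others -0.0075 to 0.045).

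Ground nanoceria replicate 2 was the high array in 3 hypoxia and glycogen genes. Stc1 was at 8.85 there against 6.71 to 6.97 on the other ground arrays, Higd1a at 11.2 against 9.17 to 9.68 and Pygl at 7.81 against 6.09 to 6.40. Ground untreated replicate 3 was low in Irs2 (9.70, others 10.38 to 10.54), Cirbp (7.44, others 8.02 to 8.18) and Acta2 (12.6, others 13.28 to 13.55), and high in Areg (7.92, others 6.10 to 6.42). Ground untreated replicate 1 was low in Tgfb1 (10.5, others 11.09 to 11.20) and high in Knl1 (8.04, others 5.88 to 6.49), Rpl5 (12.9, others 12.42 to 12.51) and Slc5a3 (7.23, others 6.96 to 7.00). Ground nanoceria replicate 1 was high in Keap1 (8.55, others 7.70 to 7.91) and Mmp11 (8.71, others 7.92 to 8.14), and ground nanoceria replicate 3 was low in Rps3a (11.7, others 12.06 to 12.12).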

How the results depend on the processing

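With 3 space arrays, of which 1 was untreated, both the counts of genes and the size of some differences moved. With 1 array left out, Chml ran from 0.36 to 0.83 and Areg from -1.24 to -0.43. At the lowest, the glycolysis median of 0.47 was 0.17 and the mitosis median of 0.46 was 0.078. Against 0 genes after adjustment, 1 passed when only probe sets with a symbol were fitted and 3 with array weights (Nek1, Stk38l and Apool), and 0 to 1 with 1 array left out. The 781 higher genes were 441 with no treatment term and 455 to 938 with 1 array left out. The 733 lower genes were 1163 with array weights and 359 to 1024 with 1 array left out. Groups apart numbered 364 to 795 higher and 626 to 1292 lower with 1 array left out, where fewer arrays have to be separated. Differences of 1 or more numbered 107 to 259 higher and 10 to 29 lower with 1 array left out, and 7 lower with a pseudocount of 16. In untreated cells 0 to 5 genes passed adjustment with 1 array left out and 349 to 1206 had an unadjusted p below 0.05, of 476 with all arrays. In treated cells these were 0 and 646 to 1592, of 1337, and for the difference between treatments 0 and 217 to 880, of 357. Leaving out untreated space replicate 1 gave no value for untreated cells.

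Under the alternatives, 2273 values of named genes kept their direction and side of the threshold, 6 passed it and 13 reversed. Most of these genes were named for their values on the same arrays, and 0 genes passed with all arrays. The tally therefore cannot measure how firm the differences are. Those reversed belonged to 4 genes that were named whatever their values, with differences near 0. Leaving out 1 array gave -0.046 to 0.21 for Epas1, -0.13 to 0.18 for Myod1, -0.49 to 0.88 for Myog and -0.16 to 0.084 for Acta2. Acta2 was also 0.021 with array weights and 0.026 as the mean of the differences within treatments. The causes were not tested. The median of all genes ran from -0.070 to -0.014 over the alternatives, and the share of higher genes among those with an unadjusted p below 0.05 was 51.6%, against 60.8% with cyclic loess and 47.7% with equal medians. Medians close to 0 changed sign with cyclic loess for clock, collagen, mechanosensor and Rab traffic genes, and with equal medians for the genes that run oxygen sensing.

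The replicate numbers were also tried as a block. With the replicate block 354 genes were lower, 0 passed adjustment and Myod1 was -0.095. Of the 31 lists described singly, the medians of mitosis and replication genes changed sign with the block, to -0.088 and -0.10. Deviations from the group means were correlated between same-numbered arrays of different groups, at -0.35 to -0.013 over 5 pairs. In a group of 2 arrays these deviations mirror each other, so the pairs are not independent. The untreated space array, alone in its group, could not be checked. These values therefore cannot show whether same-numbered arrays shared a culture run.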
